A study of Homo sapiens with 6 samples.

Results

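The transcripts described here are those of YAP1 and WWTR1, of the DNA-binding factors TEAD1 and TEAD4, of the kinase gene LATS2, and of the target genes CCN1, CCN2, AMOTL2 and AXL. They were taken as every probe set that the platform annotation gives to 1 of these 9 genes and to no other gene. Current or older symbols were accepted (CYR61 for CCN1, CTGF for CCN2). The 1043 probe sets named for several genes were not assigned to any gene, here or in the lists below. The annotation gave 13 probe sets to 8 of the 9 genes, of 11963 singly named genes and 22215 probe sets other than controls in all. No probe set was named for LATS2, which was therefore not analysed here. WWTR1 had 3 probe sets, TEAD4, CCN1 and AXL had 2 each, and the other 4 measured genes had 1 each.

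MDA-MB-231, a triple-negative human breast cancer line, was profiled on single-label (biotin) oligonucleotide arrays after and before exposure to dinaciclib, an inhibitor of several cyclin-dependent kinases including CDK9. The dinaciclib group held 3 samples taken 12 h after the drug had been added in DMSO, with the names F, 4 and 5, and the baseline group held 3 samples taken at 0 h, with the names E, 4 and 5. Both groups were the same line in serum-containing medium, and no dose is given. No source used here says that samples came from separate cultures, so a p-value here covers the spread among these 6 arrays alone, and that spread may be technical. Baseline cells were not kept for 12 h, so drug, solvent and time in culture cannot be told apart. Each array measured the RNA of a whole culture, in which fewer cells that carry a transcript and less of it per cell cannot be told apart.

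YAP1 and WWTR1 (also called TAZ) are transcriptional co-activators that do not bind DNA themselves. In the nucleus they bind the TEAD factors, and the complex drives genes of growth, adhesion and matrix such as CCN1, CCN2 and AMOTL2. The Hippo kinases STK3, STK4, LATS1 and LATS2 phosphorylate the co-activators, which holds them in the cytoplasm or marks them for degradation, and LATS2 and AMOTL2 are themselves targets that feed back on the pathway. MDA-MB-231 carries a mutation of the upstream regulator NF2 and is widely used as a cell line with high YAP activity.

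The array medians differed between groups, 43.3, 46.8 and 40.6 in dinaciclib F, 4 and 5 and 53.3, 66.2 and 60.8 in baseline E, 4 and 5, in units of linear intensity. Of all probe sets, 17.2% were called at an adjusted p under 0.05 (13.4% as falls, 3.86% as rises), and the median probe set had a log2 change of -0.21. That median was 0.03 after quantile normalization, 0.24 with array medians centred and -0.29 with spiked controls centred, so that 77.6% of calls were falls as deposited and 52.3%, 35.7% and 82.3% were under these scalings. The samples named with a letter also stood apart, with an 18S ribosomal RNA control at 1155 in dinaciclib F and 736 in baseline E, against 8273 to 9061 in the 4 samples named with a number. All 8 markers fixed as present in this line had mean intensities from 492 (TGFBI) to 8878 (VIM) after dinaciclib and from 569.7 (TGFBI) to 8944 (VIM) at baseline. The 7 measured markers of other cells lay between 6.62 and 39.6 after dinaciclib and between 3.05 and 43.7 at baseline, and of the 8 markers fixed as low or absent, 5 lay between 1.92 (PGR) and 16.2 (ERBB3) after dinaciclib and between 2.91 (PGR) and 48.0 (ERBB3) at baseline. The remaining 3 were brighter, with KRT19 at 1047 after dinaciclib and 2597 at baseline, GATA3 at 294 after dinaciclib and 350 at baseline, and EPCAM at 213 after dinaciclib and 209 at baseline.

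TEAD factors recognise the element GGAATG, and the stretch upstream of CCN2 is shown because it is the textbook example of a promoter that carries several copies. The stretch upstream of YAP1 is set beside it as that of a co-activator gene. Both are the 250 bases 5′ of the RefSeq start (GRCh38.p14), written along the gene's strand, and capitals mark GGAATG or its reverse complement.
CCN2: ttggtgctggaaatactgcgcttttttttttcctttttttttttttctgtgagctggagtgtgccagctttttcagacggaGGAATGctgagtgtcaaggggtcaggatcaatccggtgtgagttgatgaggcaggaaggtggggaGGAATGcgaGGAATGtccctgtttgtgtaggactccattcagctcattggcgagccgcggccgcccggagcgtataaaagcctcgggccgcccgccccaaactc
YAP1: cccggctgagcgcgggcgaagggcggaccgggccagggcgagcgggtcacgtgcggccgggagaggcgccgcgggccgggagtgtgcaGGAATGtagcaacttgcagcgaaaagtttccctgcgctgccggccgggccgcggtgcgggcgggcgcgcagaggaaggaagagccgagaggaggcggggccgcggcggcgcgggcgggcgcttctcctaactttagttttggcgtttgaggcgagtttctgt
The CCN2 window (chr6:131951373-131951622, minus strand) held 3 copies, which began 169, 104 and 95 bases before the start, all on the gene's strand. The YAP1 window (chr11:102110197-102110446, plus strand) held 1 copy, which began 162 bases before the start. Windows of 6 of the 9 genes were searched (YAP1, WWTR1, LATS2, CCN2, AMOTL2 and AXL), 9 windows in all, of which 4 held the element on either strand, 1 each of CCN2, YAP1, AMOTL2 and AXL. Of 35116 windows of the same length over all genes, 11.9% held it and 0.0826% held it 3 or more times. The AP-1 element TGANTCA (both strands) was in none of the 9 windows and in 6.57% of all windows. Entries for CCN1, TEAD1 and TEAD4 are not used here.

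Between 12 h of dinaciclib and baseline, WWTR1 and TEAD4 had the lowest log2 changes of these transcripts (-1.09 to -0.21 over their 5 probe sets), while CCN1 and TEAD1 had positive ones (0.26 to 0.44). Of the 13 probe sets, 1 fell (WWTR1 202132_at), 0 rose and 12 did not pass the test, against 17.2% called among all probe sets, and 4 had an unadjusted p under 0.05. For 6 probe sets the ranges of the groups were separate, 4 lower after dinaciclib (2 of WWTR1, 2 of TEAD4) and 2 higher (both of CCN1), against 36.6% of all probe sets, 26.5% lower and 10.1% higher. The median log2 change over the 13 was -0.15, beside -0.21 over all probe sets. The count of 1 depended on single samples. Of the 13, 0 passed without dinaciclib 4 (9.42% of all probe sets called), dinaciclib 5 (9.62%), baseline 4 (7.72%) or baseline 5 (7.31%), 2 passed without dinaciclib F (both of TEAD4; 12.7%) and 1 passed without baseline E (WWTR1 202133_at; 14.9%). With other settings 2 passed after quantile normalization (20.1% of all), 2 with array medians centred (24.4%), 0 with spiked controls centred (13.2%), 0 with a replicate block (15.7%), 3 with a covariate for letter or number in the sample name (21.2%) and 1 from the samples named with a number (9.77%). With a variance trend 4 passed (24.0%), without dim probe sets 4 (39.5%) and on the log2(value + 16) scale 3 (23.8%), and with 1 probe set per gene 0 of 8 passed (18.6%, or 20% of the singly named genes). All 13 had a mean signal over the 40th percentile of the table.

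**Figure D1:**
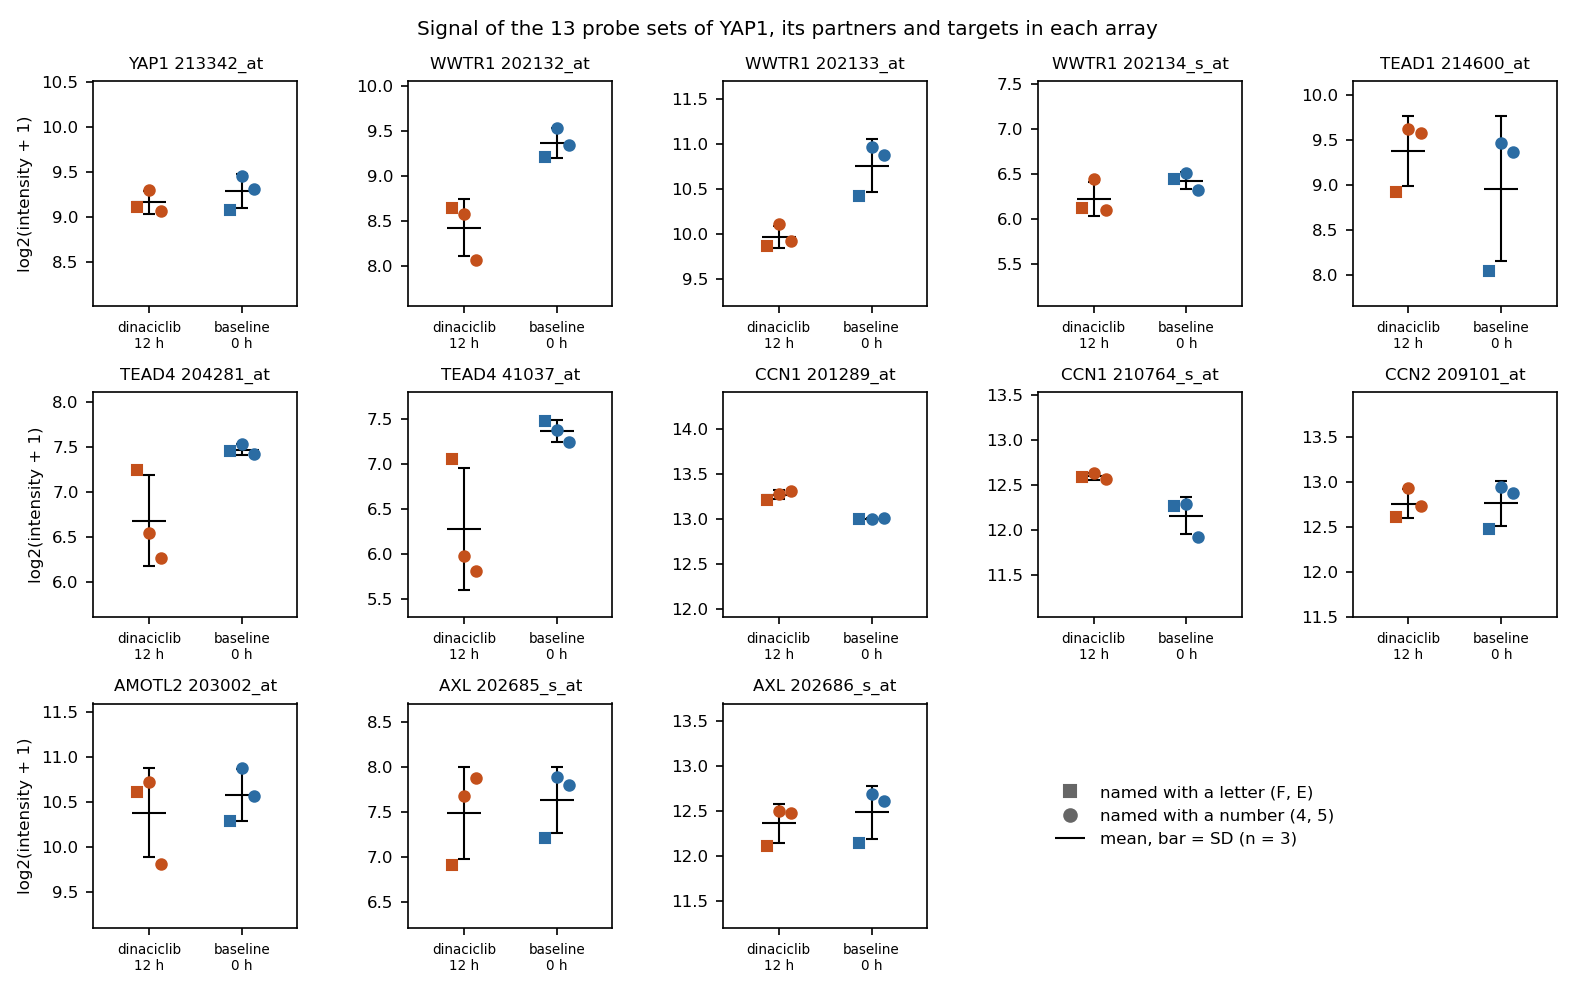
Signal of each of the 13 probe sets as log2(intensity + 1), with dinaciclib at 12 h on the left and baseline at 0 h on the right of each panel. Points are arrays (squares for samples named with a letter), the horizontal mark is the mean and the bar the SD (n = 3), and every panel spans the same number of log2 units. The points of the groups are separate for 2 probe sets of WWTR1, both of TEAD4 and both of CCN1.

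Of the co-activators, WWTR1 passed on 1 probe set and YAP1 on none. YAP1 (213342_at) read 553, 632 and 535 after dinaciclib in F, 4 and 5, against 541, 704 and 636 at baseline in E, 4 and 5. These ranges overlapped, with 9.16 ± 0.13 log2 units after dinaciclib and 9.29 ± 0.19 at baseline (SD, n = 3 each). The log2 change of -0.12 (standard error 0.20, 95% interval -0.60 to 0.36) missed the threshold (limma, Benjamini-Hochberg adjusted p = 0.737), and its sign turned after quantile normalization (0.11) and with array medians centred (0.33).

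WWTR1, the paralog of YAP1, was lower after dinaciclib on 2 of its 3 probe sets. On 202133_at, its brightest probe set, the dinaciclib arrays read 932, 1098 and 963, against 1369, 1999 and 1878 at baseline. Every dinaciclib array lay below every baseline array, with a log2 change of -0.79 (standard error 0.22, 95% interval -1.33 to -0.25) that missed the threshold (limma, Benjamini-Hochberg adjusted p = 0.0586). It passed in 6 of 16 alternatives, among them leaving out baseline E (-0.96, adjusted p = 0.0352) and quantile normalization (-0.76, adjusted p = 0.01). With array medians centred it was smaller and did not pass (-0.34, adjusted p = 0.146).

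On 202132_at, WWTR1 read 398, 379 and 266 after dinaciclib, against 592, 742 and 650.3 at baseline. The groups were again separate, at 8.42 ± 0.32 log2 units after dinaciclib and 9.37 ± 0.16 at baseline (SD, n = 3 each). This probe set fell, with a log2 change of -0.94 (standard error 0.23, 95% interval -1.51 to -0.37; limma, Benjamini-Hochberg adjusted p = 0.0404), or 0.521 times the baseline level. No fit with 5 samples kept the call, and the adjusted p was 0.0634 without dinaciclib F, 0.0872 without dinaciclib 4, 0.103 without dinaciclib 5, 0.0619 without baseline E, 0.129 without baseline 4 and 0.12 without baseline 5. The call also ended with array medians centred (-0.49, adjusted p = 0.0922) with spiked controls centred (-1.03, adjusted p = 0.0832), with a replicate block (-0.94, adjusted p = 0.0626) and within the samples named with a number (-1.13, adjusted p = 0.0822).

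The remaining WWTR1 probe set, 202134_s_at, was dimmer, with 68.6, 85.8 and 67.8 after dinaciclib and 86.2, 90.3 and 78.9 at baseline. Its groups overlapped, its log2 change was -0.21 (standard error 0.20; limma, Benjamini-Hochberg adjusted p = 0.548), and the sign turned after quantile normalization (0.28) and median centring (0.25). The WWTR1 probe sets therefore disagreed in size, and 202132_at and 202133_at kept a negative change in all 15 and all 16 alternatives in which they were tested. Among the samples named with a letter, F minus E was -0.57 on 202132_at and -0.55 on 202133_at in log2 units, and among those named with a number the changes were -1.13 and -0.91.

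**Figure D2:**
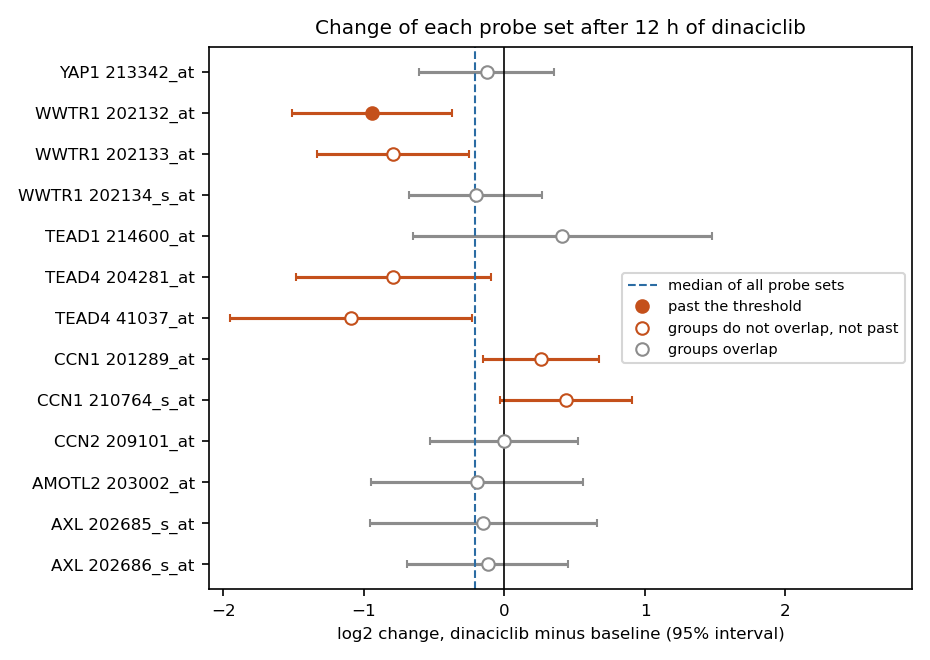
Log2 change of each probe set, dinaciclib minus baseline, with its 95% interval from limma. The filled point is the probe set past the threshold (WWTR1 202132_at), open coloured points are probe sets whose groups do not overlap, grey points overlap, and the dashed line is the median of all probe sets (-0.21).

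Neither TEAD factor passed, and their changes had opposite signs. TEAD4 (204281_at) read 151, 92.4 and 75.9 in dinaciclib F, 4 and 5, against 175, 185 and 171 in baseline E, 4 and 5. The baseline arrays were tight and all higher, and dinaciclib F, a sample named with a letter, lay well above dinaciclib 4 and 5. The log2 change was -0.79 (standard error 0.29, 95% interval -1.48 to -0.10) and missed the threshold (limma, Benjamini-Hochberg adjusted p = 0.12).

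The other TEAD4 probe set, 41037_at, read 132, 62.0 and 55.0 after dinaciclib and 178, 165 and 150.4 at baseline. It had the same order, with F nearest to baseline and no overlap of groups, and a log2 change of -1.09 (standard error 0.36; limma, Benjamini-Hochberg adjusted p = 0.0905). Without dinaciclib F both TEAD4 probe sets passed, with log2 changes of -1.07 (adjusted p = 0.0393) on 204281_at and -1.48 (adjusted p = 0.0193) on 41037_at. Within the samples named with a number the changes were -1.08 (adjusted p = 0.0586) and -1.42 (adjusted p = 0.0408), while F minus E was -0.21 and -0.43. Both kept a negative change in every alternative run, though with sizes down to -0.31 and -0.61 after quantile normalization.

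TEAD1 (214600_at) read 484, 782 and 763 after dinaciclib, against 261, 708 and 660.1 at baseline. The samples named with a letter were the lowest of both groups, so the groups overlapped and the baseline spread was wide, at 9.37 ± 0.39 log2 units after dinaciclib and 8.96 ± 0.80 at baseline (SD, n = 3 each). The log2 change of 0.41 (standard error 0.44, 95% interval -0.65 to 1.48) missed the threshold (limma, Benjamini-Hochberg adjusted p = 0.597). It was -0.05 without baseline E and 0.18 within the samples named with a number, and F minus E was 0.89. The 18S control moved with letter or number in the same way, and its part in this result was not tested.

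CCN1 and CCN2 encode matricellular proteins, secreted factors that bind integrins and matrix, and both are rapidly induced targets of YAP and TEAD. CCN1 (201289_at) read 9534, 9950.4 and 10199 after dinaciclib, against 8202, 8227 and 8304 at baseline. The groups did not overlap and the spread within each was small, at 13.27 ± 0.05 log2 units after dinaciclib and 13.01 ± 0.01 at baseline (SD, n = 3 each). The log2 change was 0.26 (standard error 0.17, 95% interval -0.15 to 0.67) and missed the threshold (limma, Benjamini-Hochberg adjusted p = 0.367). The standard error is larger than these spreads because limma moderates it towards that of all probe sets.

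The second CCN1 probe set, 210764_s_at, read 6148, 6367 and 6046 after dinaciclib, against 4914, 5016 and 3872 at baseline. All dinaciclib arrays were again higher, with a log2 change of 0.44 (standard error 0.19, 95% interval -0.03 to 0.91; limma, Benjamini-Hochberg adjusted p = 0.192). Both CCN1 probe sets kept a positive change in every alternative run and passed in 1 of them, centring on array medians (0.71 with adjusted p = 0.0251, and 0.89 with adjusted p = 0.0207). They are near the bright end of the scale, whose highest values per array were 12741 to 14388 after dinaciclib and 12014 to 14588 at baseline.

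CCN2 (209101_at), whose upstream stretch with 3 copies of GGAATG is printed above, read 6248, 7836 and 6830.4 after dinaciclib, against 5705, 7862 and 7514 at baseline. The groups covered the same range, at 12.76 ± 0.16 log2 units after dinaciclib and 12.76 ± 0.25 at baseline (SD, n = 3 each). The log2 change was -0.0038 (standard error 0.22; limma, Benjamini-Hochberg adjusted p = 0.995). Its 95% interval of -0.53 to 0.52 does not show that the level stayed equal, and the change was 0.45 with array medians centred (adjusted p = 0.0762).

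AMOTL2, a scaffold of the angiomotin family that binds YAP, read 1563, 1679.5 and 896 after dinaciclib (203002_at), against 1251, 1869 and 1517 at baseline. Dinaciclib 5 was the lowest of all 6 arrays and dinaciclib F and 4 lay among the baseline arrays. The log2 change was -0.20 (standard error 0.31, 95% interval -0.95 to 0.56; limma, Benjamini-Hochberg adjusted p = 0.735), and it was 0.09 without dinaciclib 5 and 0.25 with array medians centred. AXL, a receptor tyrosine kinase of the TAM family, read 4443, 5814 and 5729.55 after dinaciclib on its brighter probe set (202686_s_at), against 4556, 6644 and 6274 at baseline.

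The samples named with a letter were the lowest for AXL in both groups, and the groups overlapped. The log2 change of AXL was -0.12 (standard error 0.24, 95% interval -0.69 to 0.45; limma, Benjamini-Hochberg adjusted p = 0.79) on 202686_s_at and -0.15 (standard error 0.33; adjusted p = 0.814) on the dimmer 202685_s_at. The 202685_s_at probe set read 119, 203 and 233 after dinaciclib and 147, 237 and 222 at baseline. Both changes turned positive with array medians centred (0.33 and 0.30) and without dinaciclib F (0.0059 and 0.14).

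**Figure D3:**
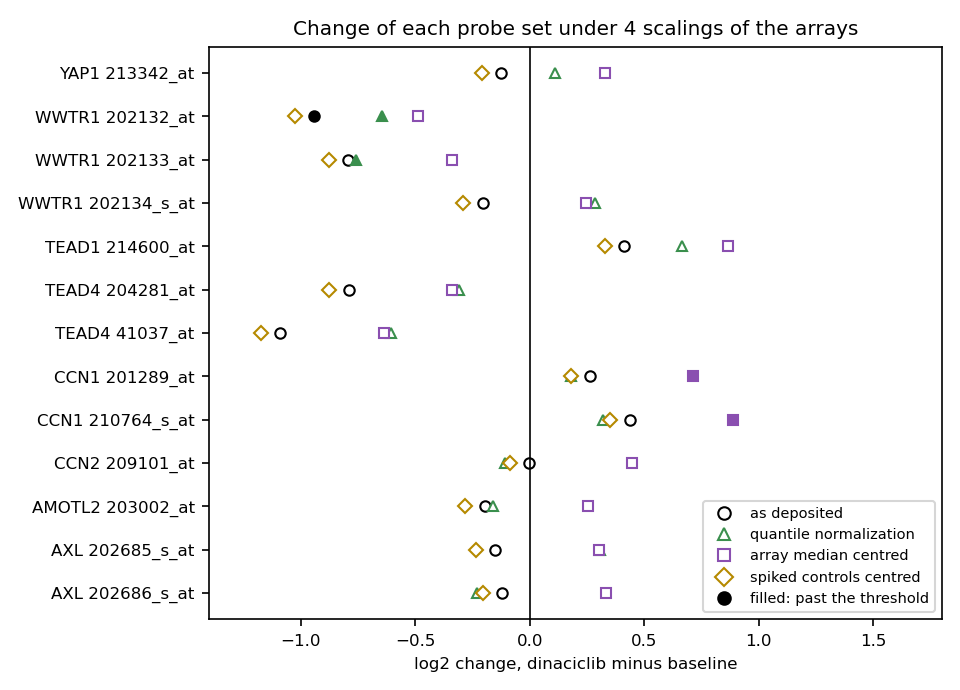
Log2 change of each probe set, dinaciclib minus baseline, with the arrays as deposited and under 3 other scalings. Filled symbols passed the threshold in that scaling. WWTR1 202132_at and 202133_at and both probe sets of TEAD4 stay left of 0, TEAD1 and both of CCN1 stay right of it, and the others lie on either side.

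Related members were compared in 3 pairs, chosen after their values were seen, and the p-values of these pairs do not account for that choice. Differences between members within the same array do not depend on a constant scaling of that array. The log2 value of WWTR1 (202133_at) minus that of YAP1 was 0.75, 0.80 and 0.85 in dinaciclib F, 4 and 5, against 1.34, 1.5 and 1.56 in baseline E, 4 and 5. The groups did not overlap, and the difference was lower by 0.67 log2 units after dinaciclib (-0.67; exact permutation test, two-sided, p = 0.1, the smallest that 3 against 3 allows, and 0.3 adjusted over the 3 pairs). The pair was read on 1 of the 3 WWTR1 probe sets, and the dim 202134_s_at had a log2 change of -0.21, beside -0.12 for YAP1.

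TEAD4 (204281_at) minus TEAD1 was -1.68, -3.07 and -3.31 after dinaciclib, against -0.58, -1.93 and -1.94 at baseline. The letter-named samples were highest in both groups, so the ranges overlapped (difference -1.20; exact permutation test, two-sided, p = 0.3, adjusted 0.3). CCN1 (201289_at) minus CCN2 was 0.61, 0.34 and 0.58 after dinaciclib, against 0.52, 0.07 and 0.14 at baseline. These ranges overlapped too (difference 0.27; exact permutation test, two-sided, p = 0.2, adjusted 0.3).

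**Figure D4:**
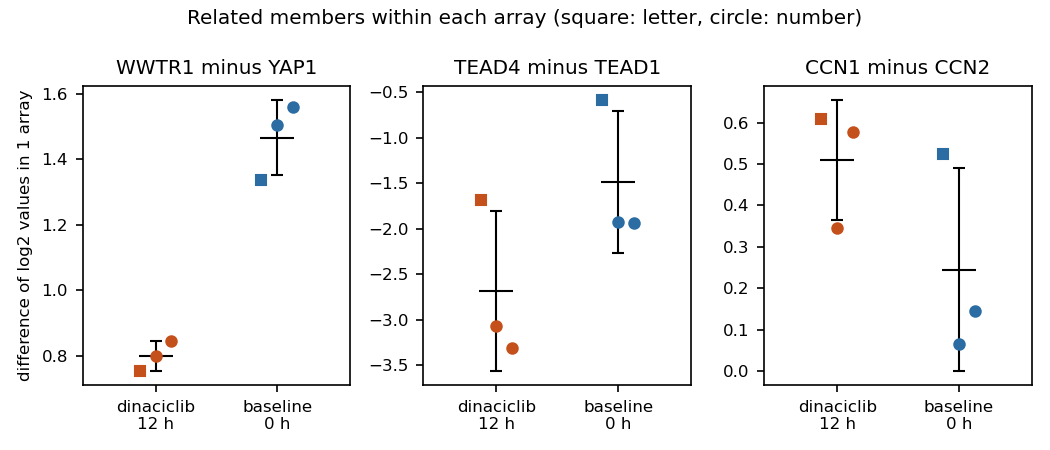
Difference of log2 values of related members in the same array, with dinaciclib left and baseline right. Squares are samples named with a letter, circles those named with a number, and marks give the mean and SD (n = 3). WWTR1 minus YAP1 lies at 0.75 to 0.85 after dinaciclib and at 1.34 to 1.56 at baseline, while the ranges of the other pairs overlap.

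Other genes of the pathway included some with larger changes. Of 27 measured genes of the Hippo lists (kinase core, upstream regulators, TEAD family and cofactors, each gene by its brightest probe set), 3 rose, 4 fell and 20 did not pass, with a median log2 change of -0.49 beside -0.26 over all genes. Among all genes, 3.32% rose and 15.8% fell. The Hippo lists were chosen with earlier results of these data known, so these counts are descriptions. After quantile normalization 5 of the 27 rose and 4 fell (8.45% and 12.9% of all genes), with array medians centred 5 rose and 3 fell (15.3% and 10.4%), and with spiked controls centred 3 rose and 3 fell (1.87% and 12.6%).

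Of 9 kinase core genes, 1 fell and 8 did not pass. TAOK3, a kinase of the TAO family, whose members phosphorylate the Hippo kinases, read 158, 283 and 200.4 after dinaciclib, against 907, 1179 and 1218 at baseline. The arrays were far apart, with a log2 change of -2.39 (standard error 0.28; limma, Benjamini-Hochberg adjusted p = 0.00502), and its other probe set fell too. The Hippo kinase gene STK3 had a log2 change of -0.68 (adjusted p = 0.103) and STK4 one of -0.27 (adjusted p = 0.62). LATS1, the paralog of LATS2, had mean intensities of 13.1 after dinaciclib and 20.9 at baseline and did not pass (adjusted p = 0.101). Both means lie among those of the markers of other cells. Its probe set is also under the percentile cut for dim probe sets, so no size of its change is given.

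Of 14 upstream regulators, 2 rose, 3 fell and 9 did not pass. FAT4, an atypical cadherin, read 69.6, 58.0 and 51.9 after dinaciclib, against 417, 492 and 418 at baseline, a log2 change of -2.87 (standard error 0.20; limma, Benjamini-Hochberg adjusted p = 0.00293). PTPN14, a phosphatase that binds YAP, moved the other way, with 286, 362 and 351 after dinaciclib and 34.2, 58.4 and 53.1 at baseline (log2 change 2.78, standard error 0.26; adjusted p = 0.00366). FAT4, PTPN14 and TAOK3 passed in all 16 alternatives.

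CSNK1E and CSNK1D, casein kinase genes whose proteins can phosphorylate YAP, went in opposite directions. CSNK1E read 111, 132 and 93.6 after dinaciclib and 9.10, 7.59 and 25.1 at baseline, a log2 change of 3.09 (standard error 0.45; limma, Benjamini-Hochberg adjusted p = 0.00802) that was 2.13 on the log2(value + 16) scale. Its baseline values lie among those of the markers of other cells, and only 1 probe set was named for CSNK1E alone. The size of the rise, and whether it holds for the gene's other transcripts, are therefore uncertain. CSNK1D read 234, 207 and 133 after dinaciclib and 365, 464 and 403 at baseline (-1.13, standard error 0.27; adjusted p = 0.0355), and fell on 2 of its 3 probe sets. CSNK1D did not pass without dinaciclib 4 (0.0786) or 5 (0.0762), without baseline E (0.0616), 4 (0.116) or 5 (0.105), after quantile normalization (0.0682), with array medians centred (-0.68, adjusted p = 0.07), with spiked controls centred (0.0652), with a replicate block (0.0626) or within the samples named with a number (0.0729). CSNK1E did not pass within the samples named with a number (adjusted p = 0.0755).

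SCRIB, a polarity scaffold, read 532.5, 556 and 497 after dinaciclib and 950.0, 1321 and 1012 at baseline (log2 change -1.04, standard error 0.21; limma, Benjamini-Hochberg adjusted p = 0.0212). It did not pass without dinaciclib F (0.0569), 4 (0.0625) or 5 (0.0706), without baseline 4 (0.0694) or 5 (0.0701), or within the samples named with a number (0.0649). Of the 4 measured TEAD family and cofactor genes, VGLL3, which binds TEAD factors in place of YAP, rose. It read 68.7, 132 and 127 after dinaciclib and 19.0, 36.5 and 24.0 at baseline, a log2 change of 1.99 (standard error 0.36; adjusted p = 0.0154) that did not pass without dinaciclib 4 (0.0523) or 5 (0.0545) or baseline 5 (0.0574). The baseline values of VGLL3 also lie among those of the markers of other cells. TEAD3 had a log2 change of -0.73 (adjusted p = 0.0596).

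Of 19 further targets of YAP and TEAD, 2 rose, 3 fell and 14 did not pass, with a median log2 change of -0.17 beside -0.26 over all genes. Among all genes 3.32% rose and 15.8% fell. After quantile normalization 3 of the 19 rose and 3 fell (8.45% and 12.9% of all genes), with array medians centred 6 rose and 3 fell (15.3% and 10.4%), and with spiked controls centred 1 rose and 3 fell (1.87% and 12.6%). Counts without 1 sample ranged from 2 to 5, beside 7.31% to 14.9% of all probe sets. There were 3 without dinaciclib 4 (9.42% of all probe sets), dinaciclib 5 (9.62%) or baseline 4 (7.72%), and 2 without baseline 5 (7.31%). The list was assembled from general knowledge of YAP and TEAD targets in other cells, not from this line. It was chosen with earlier results of these data known, so its counts are descriptions.

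ANKRD1, a nuclear ankyrin repeat protein and a widely used YAP readout, read 714, 839 and 729.8 after dinaciclib, against 1642, 2914 and 2527 at baseline. Every dinaciclib array was below every baseline array. It fell, by a log2 change of -1.60 (standard error 0.27; limma, Benjamini-Hochberg adjusted p = 0.0124), with an adjusted p of 0.0528 without baseline 5. ARHGEF17 read 6.59, 4.02 and 4.39 after dinaciclib and 77.2, 56.9 and 40.8 at baseline and passed as a fall (adjusted p = 0.00346). Its mean after dinaciclib, 5.00, lies below every mean of the markers of other cells in that group, and its mean over all arrays is under the 40th percentile, so no size of the fall is given. FJX1, the human relative of the Drosophila gene four-jointed, read 356, 492 and 445 after dinaciclib and 739, 1168 and 1119 at baseline (-1.21, standard error 0.26; adjusted p = 0.0263). FJX1 did not pass without dinaciclib F (0.074), 4 (0.0583) or 5 (0.0731), or without baseline 4 (0.0922) or 5 (0.0956).

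Rises in the same list by the brightest probe set were those of PTPN14, given above, and of EDN1, which encodes endothelin. EDN1 read 964, 1591 and 1249 after dinaciclib, against 459, 699 and 558 at baseline, and no dinaciclib array was as low as a baseline one. Its log2 change was 1.14 (standard error 0.27; limma, Benjamini-Hochberg adjusted p = 0.0365), and it did not pass without dinaciclib 4 (0.105) or 5 (0.0999), without baseline E (0.0836), 4 (0.0646) or 5 (0.111), with spiked controls centred (0.077) or within the samples named with a number (0.0682). CCN2 and ANKRD1, both common readouts of YAP, thus had log2 changes of -0.0038 and -1.60, and the difference between them was not tested.

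**Figure D5:**
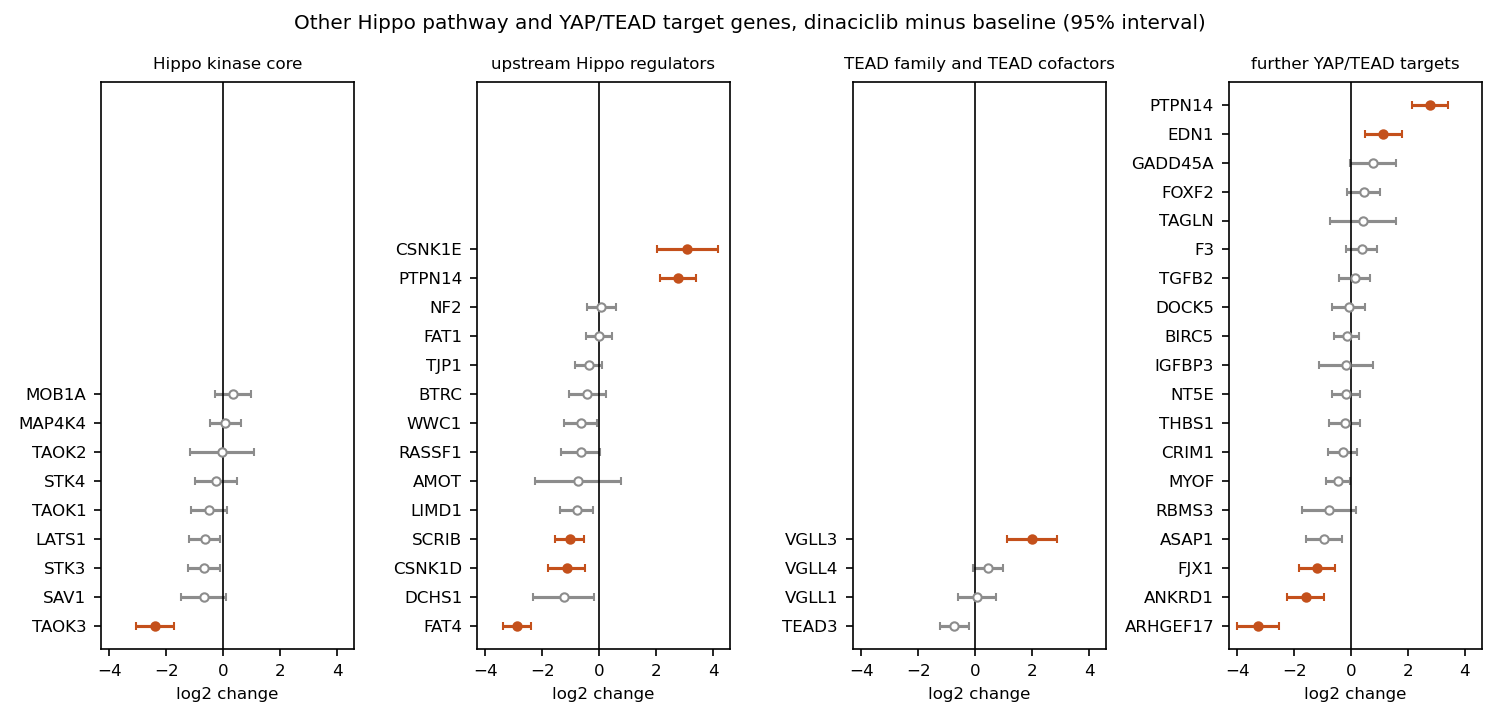
Log2 change, dinaciclib minus baseline, of the other Hippo pathway genes and further YAP and TEAD targets, each by its brightest probe set with its 95% interval from limma. Filled points passed the threshold: TAOK3, FAT4, CSNK1D and SCRIB fell and CSNK1E, PTPN14 and VGLL3 rose among 27 Hippo genes, and ARHGEF17, ANKRD1 and FJX1 fell and EDN1 and PTPN14 rose among 19 targets.

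Relatives of the members outside the pathway were also read. Of the 4 other CCN genes, 0 passed, and only CCN3 had a mean intensity over 10 (104 after dinaciclib and 81.4 at baseline). Of the 4 genes for the other TAM receptors and the TAM ligands, 1 fell, beside 15.8% of all genes. MERTK, a receptor related to AXL, read 80.0, 67.9 and 43.2 after dinaciclib and 204, 217 and 219 at baseline (log2 change -1.77, standard error 0.27; limma, Benjamini-Hochberg adjusted p = 0.00926), and 2 of its 3 probe sets fell. GAS6, the ligand of AXL, had a log2 change of -0.17 (adjusted p = 0.611).

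The genes whose 6 values, taken as differences from their own baseline mean, lay nearest to those of CCN1 among 7787 brighter genes were MT1H, XRCC5 and KHDC4, at root mean square differences of 0.03, 0.05 and 0.06 log2 units. For CCN2 they were TMEM147, CPNE1 and BDH2, each at a root mean square difference of 0.02 to 0.03 log2 units (0.025, 0.027 and 0.029). These are descriptions over 6 arrays.

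Among the marker lists 4 genes fell and 0 rose by the brightest probe set, beside 15.8% and 3.32% of all genes. These were 1 of 8 fixed as present, 2 of 8 fixed as low or absent and 1 of 7 of other cells. On dimmer probe sets CD44 rose on 2 of its 8 (log2 changes 1.15 and 1.09), while its brightest had -0.45 and did not pass. PLAU (log2 change -0.96; limma, Benjamini-Hochberg adjusted p = 0.0332), KRT19 (-1.32; adjusted p = 0.0144), ERBB3 (-1.52; adjusted p = 0.0118) and PECAM1 (adjusted p = 0.0419) passed in 8, 13, 15 and 4 of their alternatives, and for PLAU, KRT19 and PECAM1 leaving out 1 sample could end the call. PECAM1, at mean intensities of 10.9 after dinaciclib and 33.1 at baseline, is under the 40th percentile and no size is given for it, and ERBB3 is little brighter (16.2 after dinaciclib and 48.0 at baseline). The summed intensity of the markers of other cells was 88.3 to 123 per array after dinaciclib and 118 to 152 at baseline, and their part in the results was not tested.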

How the data were processed

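RNA of 3 dinaciclib and 3 baseline samples was measured on 6 arrays. The authors deposited 1 linear intensity for each probe set and array. The sources used here do not name the background correction or scaling behind these intensities, and precision is limited by the number of arrays. Gene names came from the platform annotation, checked by gene identifier against RefSeq (GRCh38.p14), where 19052 of 19064 singly named probe sets matched. After 62 controls were left out, 22215 probe sets were tested as log2(value + 1) by linear models in limma (version 3.58.1, R version 4.3.3). Group was the only term, and the Benjamini-Hochberg adjustment ran over all of them. The added 1 makes changes of dim genes smaller than they would be without it. Dim values still spread widely between arrays, so the sizes of these changes are uncertain. In the lists a gene was read from whichever of its probe sets was brightest on average. The steps were tested on simulated data, which held no difference in array scaling and none between samples named with a letter and with a number. Named were all probe sets of the members, in each other list up to 3 rises and 3 falls past the threshold without overlap of groups, and the 3 genes nearest to CCN1 and to CCN2. STK3, STK4, LATS1, TEAD3, CCN3 and GAS6 were added as relatives or partners after their values were seen. The members and lists were chosen with earlier results of these data known. Alternatives were other scalings (quantile, array median, 45 spiked controls), a replicate block, a covariate for letter or number in the sample names, a variance trend with robust estimation, the samples named with a number alone, no probe sets under the 40th percentile, log2(value + 16), 1 probe set per gene, and each sample left out. Promoter windows came from RefSeq (GRCh38.p14). Plots were made in matplotlib (version 3.10.9, Python version 3.11.15).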

Additional observations from a re-analysis of the deposited data

How the results depend on the processing

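Of the 13 member probe sets, 1 passed as deposited, 2 after quantile normalization (both of WWTR1), 2 with array medians centred (both of CCN1), 0 with spiked controls centred, 3 with the letter or number covariate, 4 with the variance trend, 4 without dim probe sets, 3 with log2(value + 16), 0 of 8 with 1 probe set per gene, and 0 to 2 without 1 sample. In all, 3828 probe sets were called, 2170 from the samples named with a number and 1623 to 3313 without 1 sample. Of the 27 Hippo genes 7 were called (19.1% of all genes), and 4 from the samples named with a number (9.77% of all probe sets). Without dim probe sets 11 of 22 were called (39.5%), and without 1 sample 4 to 6 of 27 (7.31% to 14.9%). Of the 19 further targets 5 were called (19.1% of all genes), and 9 with array medians centred (15.3% of all genes rose and 10.4% fell). With the variance trend 8 were called (24% of all probe sets), and without 1 sample 2 to 5 (7.31% to 14.9% of all probe sets). Shares of probe sets are not the same measure as shares of genes, which were 17.2% and 19.1% as deposited. Why these counts moved was not tested, beyond the fewer probe sets or samples in some fits.

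WWTR1 202132_at lost its call with array medians centred (-0.49), spiked controls centred (-1.03), the samples named with a number (-1.13) and 1 sample left out (-1.05 to -0.76). WWTR1 202133_at passed after quantile normalization (-0.76), with the covariate, the variance trend and no dim probe sets (-0.79), with log2(value + 16) (-0.78) and without baseline E (range over samples left out -0.96 to -0.69), and was -0.34 without a call with array medians centred. TEAD4 204281_at passed with the variance trend and no dim probe sets (-0.79) and without dinaciclib F (range -1.07 to -0.58). TEAD4 41037_at passed with the covariate, the variance trend and no dim probe sets (-1.09), from the samples named with a number (-1.42), with log2(value + 16) (-0.95) and without dinaciclib F (range -1.48 to -0.85). CCN1 passed with array medians centred (0.71 and 0.89). Signs turned, with no call, after quantile normalization for YAP1 (0.11), WWTR1 202134_s_at (0.28) and AXL 202685_s_at (0.30), and with array medians centred for YAP1 (0.33), WWTR1 202134_s_at (0.25), CCN2 (0.45), AMOTL2 (0.25) and AXL (0.30 and 0.33). They also turned with 1 sample left out for TEAD1 (-0.0484 to 0.67), CCN2 (-0.15 to 0.0842), AMOTL2 (-0.37 to 0.0873) and AXL (-0.36 to 0.14 on 202685_s_at, -0.29 to 0.0059 on 202686_s_at).

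With a replicate block (numbers 4 and 5, the letters as the third) 0 member probe sets passed, WWTR1 202132_at having an unchanged log2 change of -0.94 (limma, Benjamini-Hochberg adjusted p = 0.0626), and 3487 were called over the table. Deviations from group means correlated at 0.08 in both same-numbered pairs and at 0.17 between F and E, each sample's highest. With deviations taken from means of 3 samples, the highest correlation of a sample cannot be negative. This is therefore a weak hint, from the data and not from the design.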
